A study of Mus musculus with 2 samples.

Results

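The NF-kappaB feedback inhibitors and subunits described here are 10 genes: Nfkbia, Nfkbiz and Bcl3 of the IkappaB family, Tnfaip3, Tnip1, Birc3 and Tnfaip2, and the subunit genes Nfkb1, Nfkb2 and Relb. They were taken by symbol, each matched 1 entry of the deposited gene list, and they make up 10 of its 32285 genes. The study sequenced single cells of mouse vein grafts, which are veins placed in the arterial circulation, in 1 library of conventional grafts and 1 library of No-Touch grafts. In surgery the no-touch technique takes a vein with its surrounding tissue left on, and the sources used here do not say how it was done in these mice. Both libraries came from C57BL6/J mice of 10 to 12 weeks, with no other allele or agent labelled. Digestion used papain, followed by collagenase I and dispase II with papain, and live nucleated cells negative for CD45, the surface protein of blood leukocytes, were sorted and run on a 10x Genomics 3' kit. How many animals or grafts each library pooled, of which sex, and how long after grafting they were taken, the sources used here do not say.

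NF-kappaB is a family of dimeric transcription factors held in the cytoplasm by IkappaB proteins. Signals from cytokine receptors and Toll-like receptors activate the IkappaB kinase, the inhibitor is phosphorylated and degraded, and the freed dimers enter the nucleus and switch on cytokine, chemokine and adhesion genes. Many of the factor's own inhibitors and subunits are among its targets, so transcript levels of this group are widely read alongside pathway activity, and in vessel walls the pathway is known for endothelial adhesion molecules and for cytokines of smooth muscle cells and fibroblasts.

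The promoters of several of these genes are textbook examples of kappaB sites. The RefSeq promoter table (GRCm38.p6, 250 bases before to 50 bases after each start) held 7 of the 10 genes, and Nfkbiz, Nfkb1 and Relb were not in it. The kappaB consensus, searched on both strands, was found in at least 1 window of 5 of those 7 genes, against 1388 of the 27025 genes in the table, or 5.14%. The motif was chosen after the promoter sequences had been seen, and a match describes letters and not a bound site. The windows of Birc3 and Tnfaip2 held no match.

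The 250 bases before the start of Nfkbia (chr12:55492648-55492897, minus strand) and of Tnip1 (chr11:54962941-54963190, minus strand) are shown because the No-Touch library had less of both transcripts in every class compared below. Both stretches lie outside the annotated genes, they are written 5' to 3', and the capitals mark the kappaB matches.
Nfkbia: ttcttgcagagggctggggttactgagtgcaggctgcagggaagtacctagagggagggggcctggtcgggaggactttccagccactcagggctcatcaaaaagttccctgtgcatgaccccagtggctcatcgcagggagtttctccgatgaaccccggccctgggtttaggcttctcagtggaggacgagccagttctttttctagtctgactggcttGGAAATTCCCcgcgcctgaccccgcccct
Tnip1: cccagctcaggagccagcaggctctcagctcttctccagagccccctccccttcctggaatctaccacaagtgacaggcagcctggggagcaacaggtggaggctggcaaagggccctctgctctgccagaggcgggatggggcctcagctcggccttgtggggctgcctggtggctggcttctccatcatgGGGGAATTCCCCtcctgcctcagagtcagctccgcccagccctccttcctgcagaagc
The Nfkbia match begins 29 bases before the start. In Tnip1 the capitals are 3 overlapping matches, which begin 58, 57 and 56 bases before the start. Tnfaip2 had no match, and its transcript was at least 1.5 times lower in all 4 classes compared. Tnfaip3 and Bcl3 had matches and were that much lower in none of them. A link between matches and levels was not tested.

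For Nfkb2, Tnfaip3 and Bcl3, 30 bases around matches are shown, with the same use of capitals. Nfkb2 (plus strand) had a run of overlapping matches 39 bases before one start, at chr19:46304688-46304717 in an untranslated exon, and another match at chr19:46305695-46305724, which is 10 bases after a second start and 225 bases before another. Nfkb2 also had a match 11 bases before the first of these starts, in an untranslated exon at chr19:46304716-46304745, and a match 236 bases before a start in an intron, at chr19:46305449-46305478. Tnfaip3 (minus strand) had a match 125 bases before a start in an intron, at chr10:19015516-19015545, and a match 12 bases before a start at chr10:19015403-19015432, partly in an untranslated exon. Bcl3 (minus strand) had a match 2 bases after its start, in an untranslated exon at chr7:19822734-19822763.
Nfkb2, before a start: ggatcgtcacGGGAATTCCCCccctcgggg
Nfkb2, next to that start: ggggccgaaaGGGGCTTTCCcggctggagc
Nfkb2, intron: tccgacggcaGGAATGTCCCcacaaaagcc
Nfkb2, around another start: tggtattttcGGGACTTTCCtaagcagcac
Tnfaip3, intron: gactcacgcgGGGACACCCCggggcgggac
Tnfaip3, before a start: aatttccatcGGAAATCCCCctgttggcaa
Bcl3, after the start: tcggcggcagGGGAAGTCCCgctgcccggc

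After filters 9462 cells of the conventional and 10377 cells of the No-Touch library were used, with a median of 16229 and 27403 unique molecular identifiers (UMIs, counted transcript molecules) per cell. The libraries shared 16 of these cell barcodes. Cells were placed in classes by marker genes that include none of the 10, and 4 classes had over 200 cells in both libraries. These were fibroblasts (5800 conventional and 8033 No-Touch cells), mural cells (902 and 527), blood endothelial cells (817 and 399) and lymphatic endothelial cells (277 and 261). Their own markers were at 4880 to 35401 UMIs per 1000000, above the level of the same markers in every other class. Cells were placed by these same markers, so this follows from the placing and is no check of the class names. The label of CD45-negative cells did not hold for all barcodes, since 440 conventional and 97 No-Touch cells had neutrophil markers. The mononuclear phagocyte class held 45 conventional and 114 No-Touch cells, and the T or NK class 7 and 155. No level is given for a class with fewer than 50 cells in a library. A level below is the UMIs of a gene summed over a class in a library, per 1000000 UMIs of that class (CPM), with an exact 95% Poisson interval that covers counting error only. With 1 library of each kind there is no replicate, so no test was made, and every difference is between these 2 libraries and not between graft types. Where a pair of levels is given, the conventional library comes first. A gene is called lower or higher in the No-Touch library where it differs by at least 1.5 times on CPM + 1.

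The libraries also differed in the sex-linked genes of their cells. Of the conventional cells, 1792 had UMIs of Xist and none of 4 Y-linked genes (Ddx3y, Eif2s3y, Kdm5d and Uty), 5518 had Y-linked UMIs and no Xist, and 861 had both. Of the No-Touch cells 3 had Xist alone, 9648 had Y-linked UMIs alone and 27 had both. The conventional library therefore held cells with either pattern and the No-Touch library nearly only cells with Y-linked UMIs. Sex, animal and graft source cannot be told apart in these libraries, and values within the cells with Y-linked UMIs are given beside the results below.

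All 10 genes were measured above 10 CPM in each of the 4 classes, and of the 40 pairs of gene and class 20 were lower and 0 were higher in the No-Touch library. In fibroblasts 4 of the 10 genes were lower, where 3.42% of the 8424 genes tested were lower and 7.29% were higher. In mural cells 7 of the 10 were lower, against 6.34% of 8864 genes, with 11.9% of genes higher. In blood endothelial cells 4 of the 10 were lower, against 6.61% of 8690 genes, with 12.9% higher. In lymphatic endothelial cells 5 of the 10 were lower, against 7.24% of 8725 genes, with 9.57% higher. The share of lower calls among the 10 was thus above that among all genes in each class. The median log2 ratio of No-Touch over conventional was -0.40 in fibroblasts, -0.78 in mural cells, -0.49 in blood endothelial cells and -0.58 in lymphatic endothelial cells, where the median of all genes tested was 0.06, 0.07, 0.07 and 0.00. The 10 genes did not move alike: Nfkbia, Tnfaip2 and Tnip1 were lower in all 4 classes, while Tnfaip3, Relb and Bcl3 were lower in none.

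**Figure D1:**
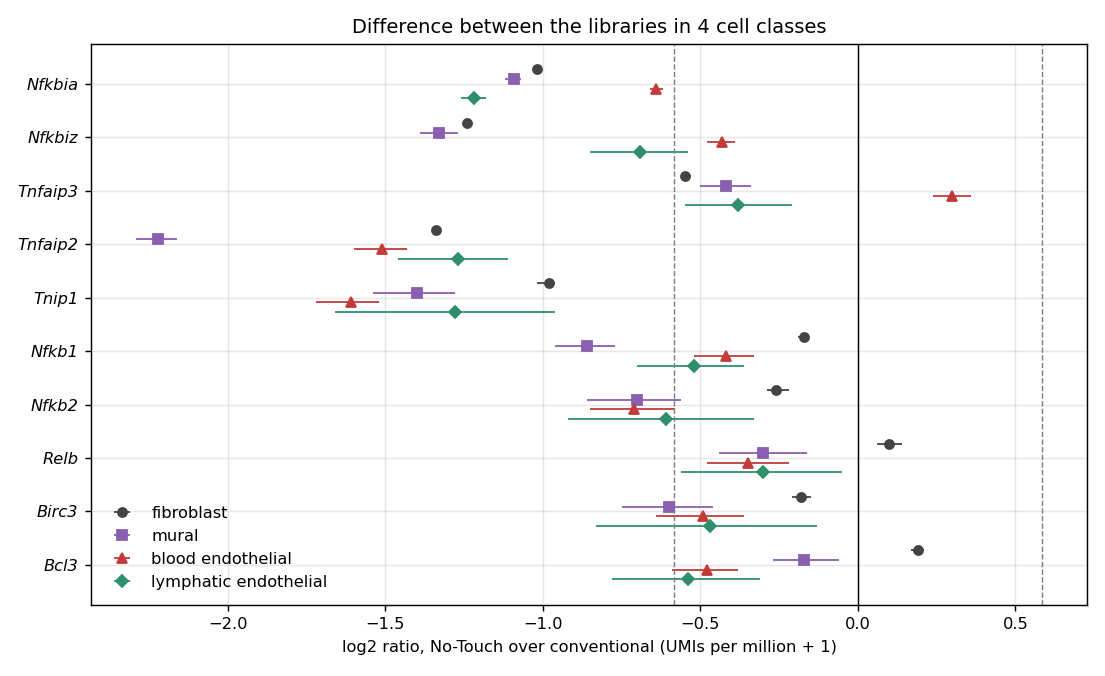
Log2 ratio of No-Touch over conventional (CPM + 1) for each of the 10 genes in fibroblasts, mural, blood endothelial and lymphatic endothelial cells, with bars for counting error only. Nfkbia, Tnfaip2 and Tnip1 lie past 1.5-fold lower in all 4 classes, and the values above 0 are Tnfaip3 in blood endothelial cells and Relb and Bcl3 in fibroblasts.

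Nfkbia (chr12:55489410-55492647, minus strand, GRCm38) encodes IkappaB alpha, the inhibitor that is degraded on stimulation and resynthesised as an early target. Its level in fibroblasts was 6506 CPM (6492 to 6520) in conventional and 3218 CPM (3211 to 3224) in No-Touch cells, a 2.02-fold difference. In lymphatic endothelial cells the levels were 4953 CPM (4877 to 5030) and 2123 CPM (2073 to 2173), and in mural cells 4533 CPM (4491 to 4576) and 2125 CPM (2094 to 2156). Blood endothelial cells had 7422 CPM (7372 to 7472) and 4757 CPM (4712 to 4803). The No-Touch level was below the conventional one in all 4 classes, with no overlap of the counting intervals, and the log2 ratio was -1.02 in fibroblasts, -1.09 in mural, -1.22 in lymphatic and -0.64 in blood endothelial cells. Only 1.19% of the genes tested in fibroblasts and 0.86% in lymphatic endothelial cells had a ratio as low or lower. The blood endothelial value depends on which cells are taken, as it was -0.33 within the largest blood endothelial cluster, described below.

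Nfkbiz (chr16:55811375-55838899, minus strand) encodes IkappaB zeta, a nuclear protein that acts as a coactivator at a subset of inflammatory genes. It fell from 1118 CPM (1112 to 1123) in the conventional to 472 CPM (469 to 475) in the No-Touch fibroblasts, a log2 ratio of -1.24. Mural cells had 849 CPM (831 to 867) and 338 CPM (326 to 350), a log2 ratio of -1.33. In lymphatic endothelial cells it was lower at 269 CPM (251 to 287) and 166 CPM (153 to 181), a log2 ratio of -0.69 that was -0.33 against the conventional cells with Xist. Blood endothelial cells differed by less than 1.5 times, with 985 CPM (967 to 1003) and 730 CPM (713 to 748). Its ratio thus passed 1.5-fold in 3 of the 4 classes.

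Bcl3 (chr7:19808462-19822770, minus strand) encodes a nuclear IkappaB-like protein that binds homodimers of the Nfkb1 and Nfkb2 products. It was called lower in no class, but passed 1.5-fold lower in 1 of 15 other ways of processing in blood endothelial cells (-0.60 with TMM scaling) and changed its call in 3 of 15 in lymphatic endothelial cells, where the log2 ratio ran from -0.73 to 0.00. In fibroblasts the level was 140 CPM (138 to 142) in conventional and 160 CPM (158 to 161) in No-Touch cells. Mural cells had 170 CPM (162 to 178) and 151 CPM (143 to 160), a log2 ratio of -0.17 whose sign changed in 2 of 15 other ways of processing. Blood endothelial cells had 176 CPM (168 to 184) and 125 CPM (118 to 133), and lymphatic endothelial cells 115 CPM (104 to 128) and 79.0 CPM (69.7 to 89.3). The 3 vascular classes thus had the lower level in the No-Touch library and the fibroblasts the higher one.

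Tnfaip3 (chr10:19000910-19015657, minus strand) encodes A20, an enzyme that edits ubiquitin chains on receptor complexes and shuts off signalling. Fibroblasts had 471 CPM (468 to 475) and 322 CPM (320 to 324), a log2 ratio of -0.55, just short of 1.5-fold, and it passed that limit in 5 of 15 other ways of processing. Mural cells had 346 CPM (334 to 358) and 258 CPM (247 to 269), and lymphatic endothelial cells 202 CPM (187 to 218) and 155 CPM (142 to 169). Blood endothelial cells went the other way in the summed level, with 405 CPM (393 to 417) in conventional and 498 CPM (484 to 513) in No-Touch cells. Tnfaip3 was thus the only one of the 10 whose ratio lay above 0 in blood endothelial cells. The median blood endothelial cell did not differ, at 3.26 in both libraries on the scale of the per-cell values below. The lower quartile was 1.44 in conventional and 1.23 in No-Touch cells, and the upper quartile 5.51 and 6.85.

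Tnip1 (chr11:54910785-54962917, minus strand) encodes ABIN-1, a ubiquitin-binding partner of A20. Its level in blood endothelial cells was 367 CPM (355 to 378) in conventional and 119 CPM (112 to 127) in No-Touch cells, a 3.05-fold difference. Mural cells had 196 CPM (187 to 205) and 73.8 CPM (68.2 to 79.8), and fibroblasts 134 CPM (132 to 136) and 67.2 CPM (66.3 to 68.2). Lymphatic endothelial cells had 72.6 CPM (63.7 to 82.4) and 29.4 CPM (23.8 to 35.9). The intervals of the libraries were apart in all 4 classes, with log2 ratios of -0.98 in fibroblasts, -1.40 in mural, -1.61 in blood endothelial and -1.28 in lymphatic endothelial cells. Tnip1 and Tnfaip3, whose products work in 1 complex, therefore had different ratios, most of all in blood endothelial cells; the difference between them was not tested.

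Birc3 (chr9:7848699-7873186, minus strand) encodes a ubiquitin ligase of the tumour necrosis factor receptor complex. It was called lower in mural cells, where it was at 110 CPM (104 to 117) and 72.6 CPM (67.0 to 78.6), but this log2 ratio of -0.60 kept the call in only 8 of 15 other ways of processing. In fibroblasts it was at 118 CPM (117 to 120) and 105 CPM (103 to 106). Blood endothelial cells had 101 CPM (95.3 to 107) and 71.5 CPM (66.0 to 77.3), and lymphatic endothelial cells 49.5 CPM (42.2 to 57.7) and 35.5 CPM (29.4 to 42.6). The call changed in 2 of 15 other ways of processing in blood endothelial cells and in 3 of 15 in lymphatic endothelial cells. The lymphatic intervals overlapped, and the fibroblast levels were the closest of the 4 classes.

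Tnfaip2 (chr12:111442469-111455018, plus strand), first known as a gene induced by tumour necrosis factor, encodes a protein of membrane protrusions. In mural cells it was at 1195 CPM (1174 to 1217) in conventional and 256 CPM (245 to 267) in No-Touch cells, a 4.66-fold difference. This log2 ratio of -2.22 was -1.53 with classes taken from clusters. Fibroblasts had 1919 CPM (1912 to 1927) and 759 CPM (756 to 762). Blood endothelial cells had 441 CPM (429 to 454) and 154 CPM (146 to 163), and lymphatic endothelial cells 278 CPM (260 to 296) and 114 CPM (103 to 126). The other log2 ratios were -1.34 in fibroblasts, -1.51 in blood endothelial and -1.27 in lymphatic endothelial cells, and over the 4 classes between 0.282% and 0.779% of all genes tested had a ratio as low in their class. Its range over other ways of processing stayed past 1.5-fold in each class.

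Of the subunit genes, Nfkb1 (chr3:135584655-135691547, minus strand), the source of the p50 subunit, was lower in mural cells, at 292 CPM (281 to 302) and 160 CPM (152 to 169). In fibroblasts it was at 249 CPM (246 to 252) and 220 CPM (219 to 222), in blood endothelial cells at 208 CPM (199 to 216) and 155 CPM (147 to 163), and in lymphatic endothelial cells at 211 CPM (195 to 227) and 146 CPM (134 to 160). The No-Touch level was below the conventional one in all 4 classes, and past 1.5-fold in mural cells. The call was the same in 11 of 15 other ways of processing in lymphatic endothelial cells (lowest -0.69) and in 13 of 15 in blood endothelial cells (lowest -0.63).

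Nfkb2 (chr19:46304320-46312385, plus strand), the source of the p52 subunit of the non-canonical pathway, was lower in the 3 vascular classes. The levels were 109 CPM (103 to 116) and 66.8 CPM (61.4 to 72.5) in mural cells, 122 CPM (116 to 129) and 74.5 CPM (69.0 to 80.5) in blood endothelial cells, and 75.9 CPM (66.8 to 86.0) and 49.3 CPM (42.0 to 57.6) in lymphatic endothelial cells. In fibroblasts it was at 76.6 CPM (75.1 to 78.1) and 64.0 CPM (63.0 to 64.9), a log2 ratio of -0.26. The lymphatic call held in 11 of 15 other ways of processing and the mural call in 13. Nfkb2 overlaps AC114539.1 and Psd on the opposite strand, which were counted at 4814 and 2123 UMIs against its own 40809 over the cells used.

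Relb (chr7:19606217-19629438, minus strand), whose product pairs with p52, had log2 ratios from -0.35 to 0.10. Fibroblasts had 58.4 CPM (57.1 to 59.8) and 62.7 CPM (61.7 to 63.6). Mural cells had 97.6 CPM (91.5 to 104) and 79.3 CPM (73.4 to 85.5), blood endothelial cells 111 CPM (105 to 118) and 87.4 CPM (81.4 to 93.8), and lymphatic endothelial cells 89.6 CPM (79.7 to 100) and 72.6 CPM (63.7 to 82.5). The lymphatic levels had overlapping intervals, while the counting interval of their log2 ratio ran from -0.56 to -0.05. Relb was thus close to level between the libraries in fibroblasts and somewhat lower in the No-Touch library in the other classes, short of 1.5-fold. The mural ratio of -0.30 depended on which cells were taken. It was -0.08 with classes taken from clusters, -0.02 in the pericyte part and -0.51 in the smooth muscle part described below. Within mural clusters 5 and 11 it was -0.21 and 0.00.

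Across cell classes, the order of levels differed by gene. Neutrophils had the highest Nfkbia level in both libraries, at 18841 CPM (18599 to 19085) in conventional and 12243 CPM (11917 to 12577) in No-Touch cells. In the conventional library blood endothelial cells came next, then fibroblasts, lymphatic endothelial cells, mural cells, epithelial cells at 3292 CPM and Schwann cells at 2778 CPM, with no overlap between neighbours. In the No-Touch library blood endothelial cells also came second, mononuclear phagocytes followed at 3398 CPM and fibroblasts came after them, mural and lymphatic endothelial cells did not differ beyond counting error, and Schwann cells at 919 CPM and T or NK cells at 787 CPM were lowest. Schwann cells, with 178 and 292 cells, were below the size set for a comparison.

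Other genes had other leading classes. The conventional Tnip1 level was highest in blood endothelial cells, above the 303 CPM (273 to 336) of neutrophils. Nfkb1 was highest in mural cells in the conventional library, and in the No-Touch library in mononuclear phagocytes at 267 CPM (239 to 297), which overlapped T or NK cells at 227 CPM (206 to 250). Tnfaip3 was at 1028 CPM (973 to 1085) in No-Touch mononuclear phagocytes and 925 CPM (837 to 1020) in No-Touch neutrophils, which overlapped, while conventional neutrophils had 543 CPM (503 to 586). Relb was lowest in fibroblasts in both libraries, though in the No-Touch library their interval overlapped that of Schwann cells at 70.2 CPM (61.2 to 80.2).

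**Figure D2:**
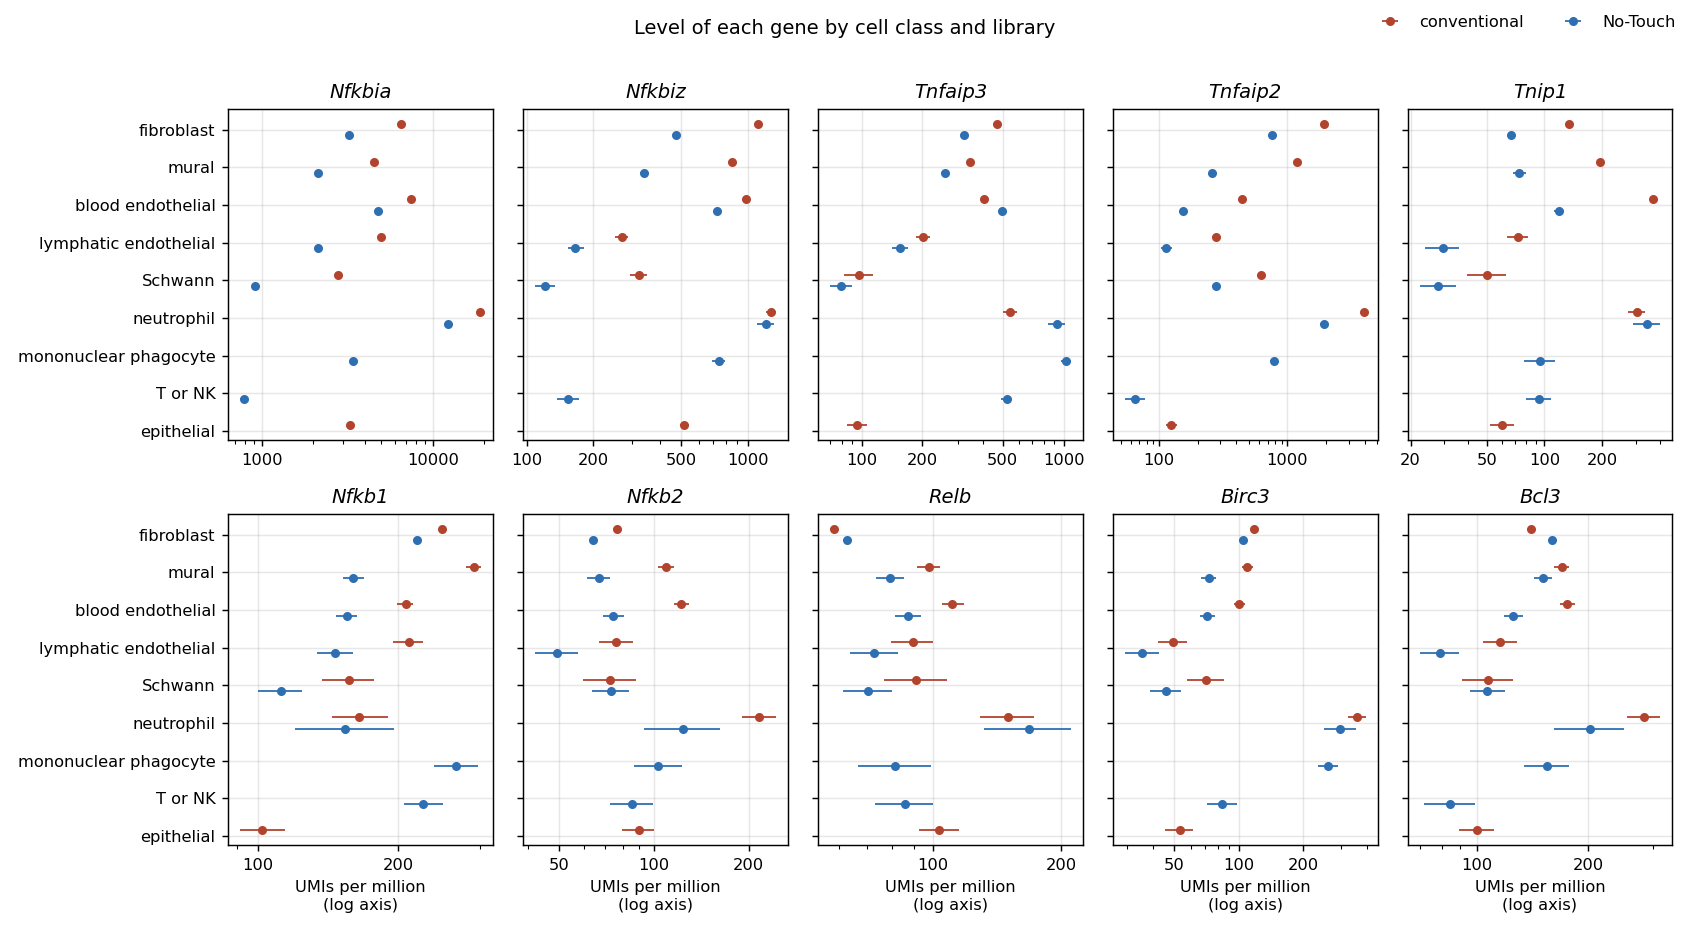
Level of each of the 10 genes (CPM, log axis) in every class of at least 50 cells, with conventional and No-Touch libraries as separate points and 95% counting intervals as bars. Neutrophils lie highest for Nfkbia in both libraries, at 18841 and 12243 CPM, and the No-Touch points of Nfkbia, Tnfaip2 and Tnip1 lie below the conventional points in the 4 classes compared.

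The differences were also seen in the spread over single cells. The median fibroblast had 62.2 Nfkbia UMIs per 10000 UMIs in the conventional library, with 18.8 at the 10th and 116 at the 90th percentile, and 27.4 in the No-Touch library, with 6.45 and 56.5. Mural cells had a median of 37.3 in conventional and 14.3 in No-Touch cells, and lymphatic endothelial cells 46.6 and 15.6. Blood endothelial cells had 71.8 and 47.0, with the wide No-Touch range of 7.59 to 97.5. The median Tnfaip2 value in fibroblasts was 14.0 in the conventional library (2.84 to 46.5 between those percentiles) and 4.92 in the No-Touch library (1.00 to 17.0). Cells of the libraries overlapped in each class, and the shift was of the whole distribution in fibroblasts, where all 5 percentiles of Nfkbia and of Tnfaip2 were lower in the No-Touch library.

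**Figure D3:**
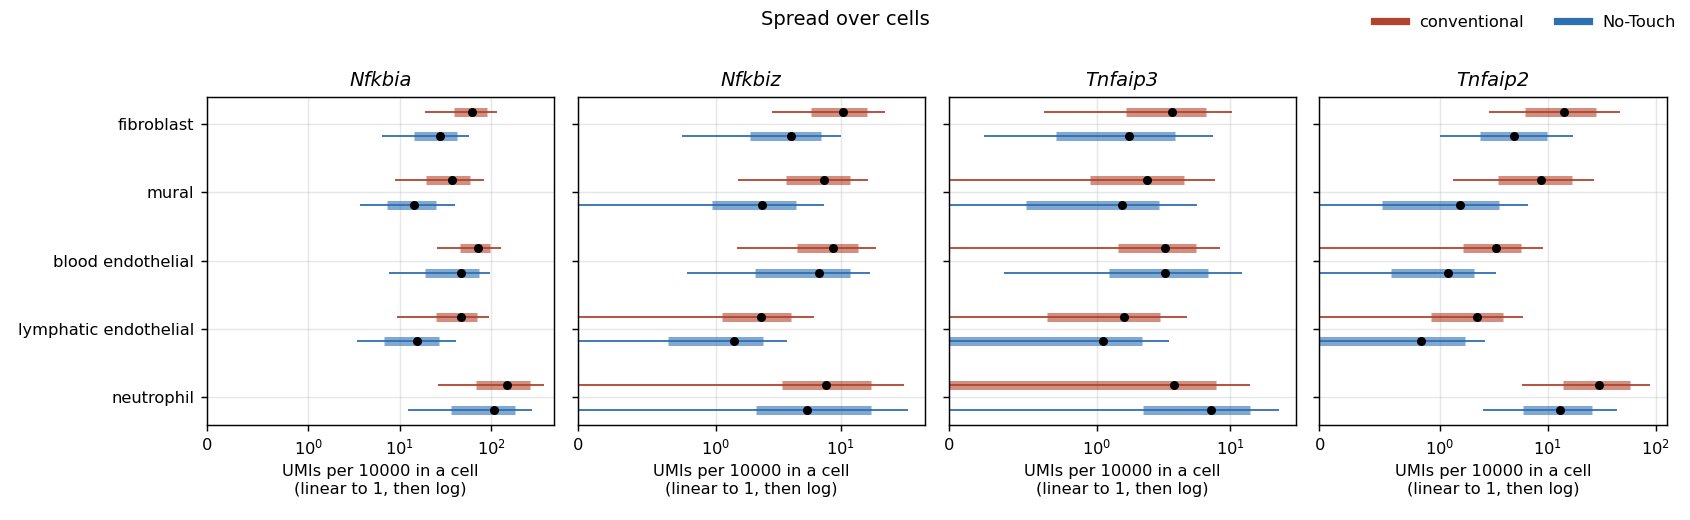
UMIs of Nfkbia, Nfkbiz, Tnfaip3 and Tnfaip2 per 10000 UMIs of a cell (axis linear to 1, then log) by class and library, with the median as a dot, the 25th to 75th percentile as a thick bar and the 10th to 90th as a thin line. The Nfkbia median of fibroblasts was 62.2 in conventional and 27.4 in No-Touch cells, and the ranges of the libraries overlap; cells of 1 library are not replicates.

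Pairs of the genes were also compared over single cells. As a description over cells, which share a library and differ in depth, the Spearman correlation of Nfkbia with Tnfaip3 in fibroblasts was 0.54 in conventional and 0.63 in No-Touch cells. That of Nfkbia with Nfkbiz was 0.57 and 0.46 in fibroblasts and 0.49 and 0.72 in blood endothelial cells. Nfkbia with Tnfaip2 had 0.55 and 0.48 in fibroblasts, but 0.14 and 0.03 in blood endothelial cells.

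The makeup of the classes differed between the libraries, so the values were also taken within parts of each class. Fibroblasts with UMIs of Pi16 or Dpp4, markers of adventitial progenitors (5138 and 7596 cells), had a median log2 ratio of -0.39 over the 10 genes, and those without (662 and 437 cells) -0.58. The pericyte part of the mural class (620 and 255 cells) had log2 ratios of -1.11 for Nfkbia, -1.29 for Nfkbiz, -1.82 for Tnfaip2 and -0.85 for Tnip1. These were the only 4 of the 10 genes that were lower in pericytes. The rest lay between -0.58 for Nfkb1 and 0.11 for Bcl3, and the pericyte median was -0.47. The smooth muscle part (282 and 272 cells) had log2 ratios of -1.15 for Nfkbia, -2.60 for Tnfaip2 and -2.08 for Tnip1. There 7 of the 10 genes were lower, so the count of the whole mural class was reached in this part and not in the pericytes. Of the No-Touch mural cells 26.0% lay in cluster 10, whose leading genes included Col2a1 and Itga8, against 5.10% of the conventional ones. With mural cells kept only in the 2 mural clusters, 5 genes were lower rather than 7, the median was -0.63, and Tnfaip2 had -1.87 and Tnip1 -1.09. Within mural cluster 5, whose leading genes included Myh11, Tnfaip2 had -1.83 and Tnip1 -1.15. Within mural cluster 11 they had -1.38 and -0.90.

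Different clusters held the fibroblasts of the 2 libraries. Clusters were made without the 10 genes, and the conventional fibroblasts lay mostly in clusters 1 (29.3%), 6 (21.9%) and 12 (16.3%), while the No-Touch ones lay mostly in clusters 2 (25.5%), 7 (23.5%) and 4 (15.3%). Over the 10 fibroblast clusters with at least 50 cells of each library, the log2 ratio ran from -1.63 to -0.49 for Nfkbia, from -1.34 to -0.63 for Nfkbiz, from -2.89 to -0.82 for Tnfaip2 and from -2.63 to -0.26 for Tnip1. These 4 genes were below 0 in every one of them. The lowest Tnfaip2 and Tnip1 values were both in cluster 10. There, 137 of 317 No-Touch and 46 of 596 conventional cells were gated as mural, so the mix of cells differed. The next lowest values were -1.62 in cluster 23 for Tnfaip2 and -1.28 in cluster 19 for Tnip1. The other 6 genes had clusters on both sides of 0, with Tnfaip3 between -0.73 and 0.20 and Bcl3 between -0.32 and 0.50. The median over the 10 genes ran from -0.87 in cluster 10, with -0.55 in cluster 19 next, to 0.04 in cluster 4. The fibroblast median of the whole class was thus not shared by all clusters.

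In the largest blood endothelial cluster (659 and 265 cells) Nfkbia had a log2 ratio of -0.33 and Nfkbiz -0.14, while Tnfaip2 had -1.53, Tnip1 -1.45 and Tnfaip3 0.59. Only 2 of the 10 genes (Tnfaip2 and Tnip1) were lower in this cluster and 1 (Tnfaip3) was higher, with a median of -0.34. The whole class had 4 lower and 0 higher. The Tnfaip2 and Tnip1 ratios in the cluster were close to the -1.51 and -1.61 of the whole class, and the Nfkbia ratio was about midway between that of the class and 0. The makeup of this class also differed between the libraries. Cluster 24, another blood endothelial cluster, held 72 No-Touch and 5 conventional cells.

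Cells with the same sex-linked pattern gave ratios of similar size. Against the conventional cells with Y-linked UMIs and no Xist, the No-Touch cells with Y-linked UMIs had log2 ratios of Nfkbia of -0.99 in fibroblasts, -1.13 in mural, -0.59 in blood endothelial and -1.16 in lymphatic endothelial cells. Fibroblast Nfkbia was at 7328 CPM (7290 to 7366) in conventional cells with Xist, 6406 CPM (6389 to 6423) in conventional cells with Y-linked UMIs and 3224 CPM (3217 to 3231) in No-Touch cells with Y-linked UMIs. Fibroblast Tnfaip2 followed the same order at 2308, 1874 and 758 CPM, and Tnip1 at 161, 128 and 67.4 CPM. The No-Touch level was below both conventional levels in 37 of the 40 pairs, the others being Relb and Bcl3 in fibroblasts and Tnfaip3 in blood endothelial cells. The same 37 pairs had a ratio below 0 in the whole classes, and the share among all genes is not given. Counting intervals were not used for this count. Some overlapped, as for fibroblast Nfkb1 at 227 CPM (220 to 234) in conventional cells with Xist and 220 CPM (218 to 222) in No-Touch cells.

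The cells with Y-linked UMIs were also set against those with Xist within the conventional library. In fibroblasts 0 of the 10 genes were 1.5 times lower or higher, where 1.08% of all genes were lower and 2.26% higher. The same count of 0 was found in mural cells, with 1.68% of genes lower and 3.36% higher, and in blood endothelial cells, with 1.56% lower and 3.63% higher. In lymphatic endothelial cells, with only 49 cells with Xist, Tnfaip2 was higher in the cells with Y-linked UMIs by 0.68 on the log2 scale, where 10.4% of genes were lower and 9.11% higher. With shares this low among all genes, a count of 0 or 1 among 10 is no result about the 10 genes.

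**Figure D4:**
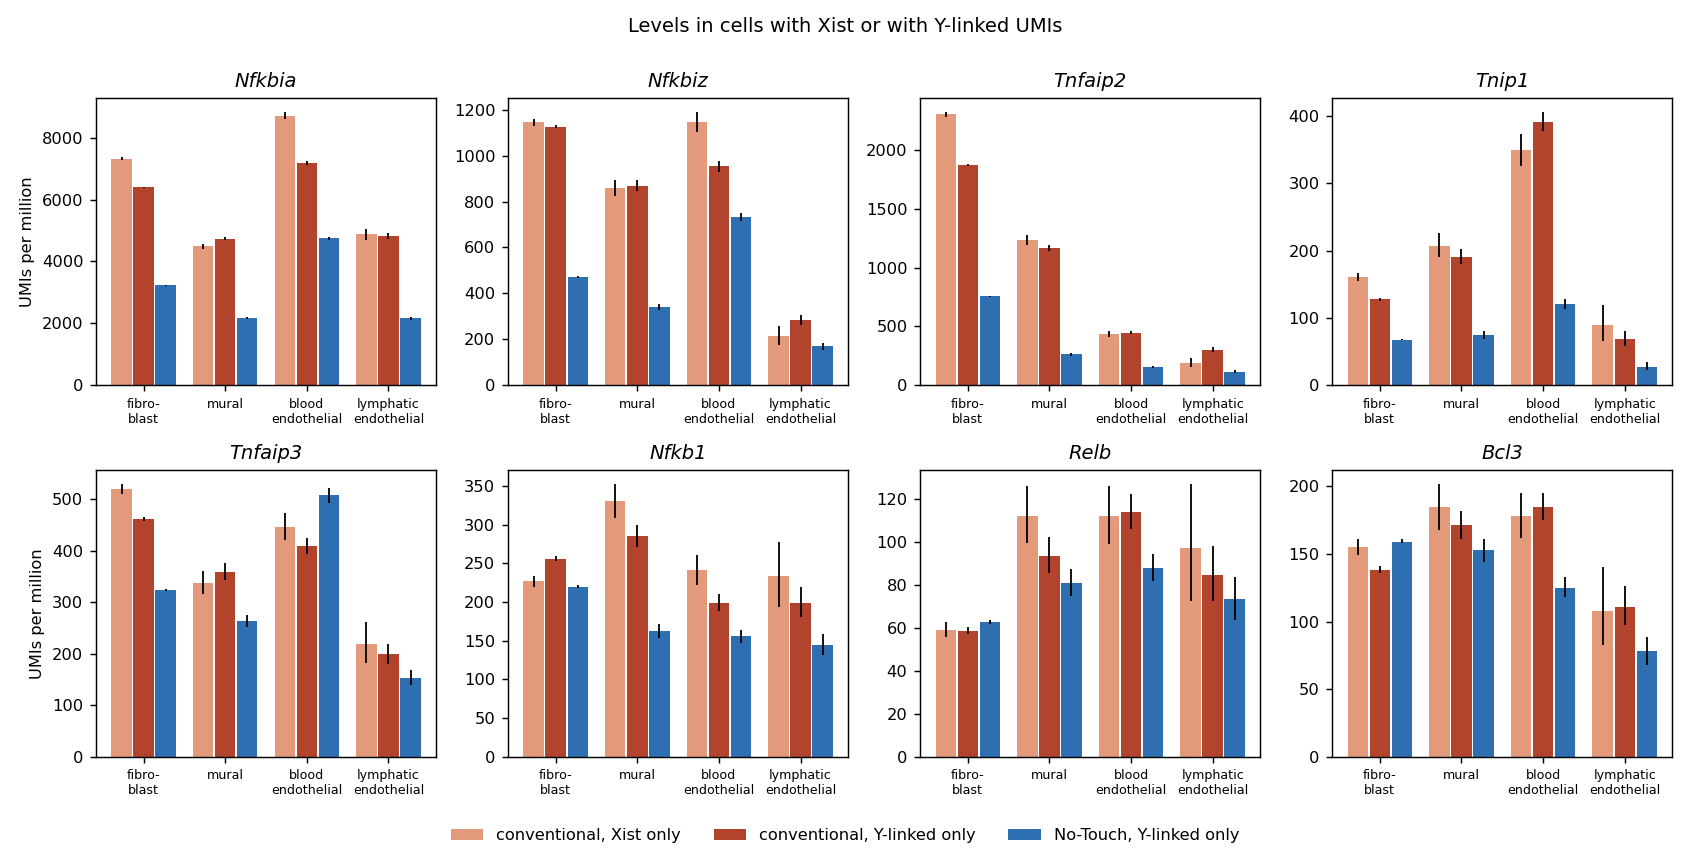
Levels (CPM) of 8 of the 10 genes by class as bars for conventional cells with Xist UMIs only, conventional cells with Y-linked UMIs only and No-Touch cells with Y-linked UMIs only, with lines for the 95% counting interval. Fibroblast Nfkbia lies at 7328, 6406 and 3224 CPM, with the No-Touch cells lowest.

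Other genes of the pathway were counted in the same way. Of the inflammatory target genes with at least 10 CPM, fibroblasts had 13 of 26 lower and 3 higher in the No-Touch library (median log2 ratio -0.57), mural cells 14 of 25 and 2 (-0.83), blood endothelial cells 8 of 24 and 5 (-0.02), and lymphatic endothelial cells 10 of 22 and 3 (-0.40). The neutrophil chemokine Cxcl2 was at 3421 and 690 CPM in fibroblasts and at 1766 and 283 CPM in mural cells, and the granulocyte factor Csf3 at 73.9 and 10.6 CPM in fibroblasts and 737 and 171 CPM in blood endothelial cells. The acute phase genes Saa3 and Lcn2 fell in fibroblasts from 4124 to 1099 CPM and from 335 to 52.8 CPM. The leukocyte adhesion molecule gene Icam1 in lymphatic endothelial cells was at 2459 and 617 CPM. The cytokine Il6 went the other way in both endothelial classes, from 44.0 to 118 CPM in blood and from 12.2 to 49.0 CPM in lymphatic endothelial cells.

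Upstream genes were read against the same shares of all genes, of which 3.42%, 6.34%, 6.61% and 7.24% were lower in fibroblasts, mural, blood endothelial and lymphatic endothelial cells. Of the adaptors and kinases, 1 of 22 was lower in fibroblasts (Malt1, a paracaspase, at 22.9 and 14.7 CPM), 2 of 23 in mural cells, 3 of 24 in blood endothelial and 3 of 25 in lymphatic endothelial cells, with 0, 0, 0 and 1 higher and medians between -0.07 and 0.09. The kinase gene Ikbkb, a catalytic subunit of the IkappaB kinase, was at 73.0 and 44.9 CPM in mural, 96.9 and 60.1 CPM in blood endothelial and 184 and 99.6 CPM in lymphatic endothelial cells. Of the receptors 0 or 1 was lower and 0 to 2 were higher in each class, with medians between -0.02 and 0.07, and the interleukin 17 receptor gene Il17ra was at 116 and 52.8 CPM in mural cells. Rela, the main activating subunit, was lower in the 3 vascular classes, at 175 and 116 CPM in mural, 133 and 81.8 CPM in blood endothelial and 134 and 70.5 CPM in lymphatic endothelial cells.

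Of the other IkappaB genes with at least 10 CPM, 1 of 2 was lower in fibroblasts, 2 of 2 in mural, 2 of 3 in blood endothelial and 1 of 2 in lymphatic endothelial cells. Nfkbib was at 91.6 and 58.6 CPM in fibroblasts, 66.7 and 36.6 CPM in mural cells and 113 and 59.9 CPM in blood endothelial cells, and Nfkbie at 101 and 47.4 CPM in mural cells and 72.6 and 45.6 CPM in lymphatic endothelial cells. Of 16 other negative regulators, 3 were higher in each class, and they were the same 3 genes: Zfp36, which destabilises cytokine transcripts, and Socs1 and Socs3, which restrain cytokine receptors. In fibroblasts Socs1 was at 53.8 and 156 CPM, Socs3 at 666 and 1345 CPM and Zfp36 at 1718 and 3298 CPM. Of those 16 regulators, 0, 1, 2 and 1 were lower in fibroblasts, mural, blood endothelial and lymphatic endothelial cells, and the list's median log2 ratio lay between -0.11 and 0.07.

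Immediate early and heat shock genes, which cell handling is known to move, were given for comparison. Of these, 4 of 21 were lower and 2 higher in fibroblasts, 4 of 22 lower and 2 higher in mural cells, 3 of 22 lower and 5 higher in blood endothelial cells, and 0 of 21 lower and 7 higher in lymphatic endothelial cells. The shares of all genes that were higher were 7.29%, 11.9%, 12.9% and 9.57% in the same order. Fos was higher in the No-Touch library in all 4 classes, from 2775 to 4606 CPM in fibroblasts, 1847 to 4879 CPM in mural, 572 to 2720 CPM in blood endothelial and 1488 to 5621 CPM in lymphatic endothelial cells. Summed over the 22 genes of the list, fibroblasts hardly differed, with 31788 CPM in conventional and 31318 CPM in No-Touch cells. The sums of the vascular classes were larger in the No-Touch library. The nuclear transcript Neat1 in fibroblasts was at 1213 and 450 CPM, and AY036118 at 673 and 108 CPM, while the median mitochondrial share was 2.22% and 1.63%. Not all nuclear transcripts fell with Neat1. In the same fibroblasts Malat1 rose from 27888 to 29449 CPM, Meg3 from 906 to 1190 CPM, and Kcnq1ot1 from 187 to 232 CPM. The 8 neutrophil markers summed to 26.2 and 12.9 CPM in fibroblasts, 31.3 and 9.79 CPM in mural, 41.2 and 40.0 CPM in blood endothelial and 13.7 and 11.9 CPM in lymphatic endothelial cells, against 23582 and 48283 CPM in the neutrophils. All 8 were above 0 in the fibroblasts of both libraries. In fibroblasts without any UMI of these markers, 4 genes were lower and the median was -0.45, and with each fibroblast thinned to 3000 UMIs it was -0.50. The part of handling and RNA quality in the ratios was not tested.

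Among all 10626 genes of at least 20 CPM in some class, those with the pattern most like each of the 10 over 15 class and library points were taken by Pearson correlation of log2(CPM + 1). Nfkbia had Tmem248 at 0.93, Atg9a at 0.89 and Nfkbiz at 0.88, and Nfkbiz had Nfkbia at 0.88, Tnip1 at 0.84 and Icosl at 0.84. Tnfaip2 had Cxcl2 at 0.89, P4ha1 and Sod2 at 0.88, and Tnip1 had Hivep1 at 0.93. Nfkb2 had Nfkbie, Hivep1 and Sde2 at 0.88, Birc3 had Chmp4b and Mapkapk2 at 0.94 and Zc3h12a at 0.93, and Bcl3 had Sod2 at 0.90. Tnfaip3 had Hpcal1 and Prr13 at 0.89, Relb had Hk1 at 0.92 and Nfkb1 had B4galt1 and Rftn1 at 0.82. Points of 1 library share its depth and free RNA, so these values are descriptions of 15 points from 2 libraries.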

How the data were processed

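Single cells of 1 conventional and 1 No-Touch vein graft library were measured on a 10x Genomics 3' kit, version 2 or 3 per the labels' protocols. The deposited matrices hold counts, whole numbers of UMIs per gene and barcode, made by the authors with Cell Ranger on mm10. Its version is 3.1.0 per the submitters' processing notes and 6.0.0 per the file headers, and the sources used here do not say whether strand was used. The libraries held 11899 and 12450 barcodes with 200851272 and 373319906 UMIs.

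The 10 genes, the lists, the markers and the tests were chosen with earlier results of these data known. Filters of at least 500 genes and 1000 UMIs and a mitochondrial share of at most 10% left 10458 and 11525 barcodes. The highest doublet scores were removed at 0.8% per 1000 barcodes (996 and 1148 barcodes), because the automatic threshold marked 241 and 0. A cell joined the class whose 8 markers scored at least 0.25 and 0.1 above any other class. This rule was set on cell counts after the files were seen. A B cell list was dropped because Ebf1 was high in mural cells, and the mesothelial class held 17 and 0 cells. Clusters (Leiden, 2000 variable genes, 30 components, resolution 1, none of the 10 genes) served as a check. Clusters 3 and 20 scored as fibroblast, but their leading genes held more markers of another class, so their 160 and 77 conventional and 3 and 93 No-Touch fibroblast cells were left out, a choice made after the values were known. Between 0.501% and 10.6% of the cells of the 4 classes lay within 0.05 of the limits.

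Counts were summed by class and library and given as CPM (per 1000000) with Garwood 95% intervals. The log2 ratio used CPM + 1, and calls past 1.5-fold were made among genes that reached 10 CPM in one library or the other. All 10 genes were named, with up to 4 genes of at least 20 CPM with the largest ratio from each list and class, and the 3 most alike genes of each of the 10; the text gives a selection of these. No test was made, as each group is 1 library. Alternatives changed filters, gates, clusters, weights, thinning, scaling, pseudocount and thresholds. The ratio calculation was checked with TMM scaling on counts simulated from the conventional blood endothelial cells. The main ratios were scaled by total counts, and that scaling was not part of the check. Software was Python 3.11.15, scanpy 1.11.5, scipy 1.17.1, numpy 2.4.6, pandas 2.3.3, leidenalg 0.10.2, igraph 0.11.9 and matplotlib 3.10.9.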

Additional observations from a re-analysis of the deposited data

Results flagged for a closer look

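For 3 genes the difference between the libraries had opposite signs in different classes, and the difference between classes was not tested. The log2 ratio of No-Touch over conventional for Tnfaip3 was 0.30 in blood endothelial cells, but -0.55 in fibroblasts, -0.42 in mural and -0.38 in lymphatic endothelial cells. The median Tnfaip3 value over single blood endothelial cells was the same in both libraries, and only the summed level and the upper part of the distribution were clearly higher. For Relb the log2 ratio was 0.10 in fibroblasts, but -0.30 in mural, -0.35 in blood endothelial and -0.30 in lymphatic endothelial cells. For Bcl3 the log2 ratio was 0.19 in fibroblasts, but -0.17 in mural, -0.48 in blood endothelial and -0.54 in lymphatic endothelial cells. The mural values were not stable within clusters. In mural clusters 5 and 11 Relb had -0.21 and 0.00, and Bcl3 had 0.00 and 0.15. Each value rests on 1 library of each kind.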

How the results depend on the processing

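The counts of genes lower in the No-Touch library and the median ratios kept their direction under every alternative run on whole classes; within single clusters, the median was above 0 in fibroblast cluster 4 (0.04). In fibroblasts the median of -0.40 became -0.45 with median-of-ratios scaling, -0.44 with TMM, -0.49 with equal weight for each cell and -0.50 with cells thinned to 3000 UMIs. Among alternatives chosen after seeing the data, it was -0.45 in cells without neutrophil marker UMIs and -0.50 against conventional cells with Xist. In mural cells the median of -0.78 became -0.89 with TMM, -0.61 with cluster classes, -0.63 with gated cells in mural clusters (chosen after seeing the data) and -0.90 against cells with Xist. In blood endothelial cells -0.49 became -0.60 with TMM and -0.64 against cells with Xist, where 7 genes rather than 4 were lower. At a fold of 2 the lower genes were 4 in mural, 2 in blood endothelial and 3 in lymphatic endothelial cells. TMM moved the median of all genes by -0.10 in mural and -0.11 in blood endothelial cells. Cells with Y-linked UMIs alone, values within clusters and the 2 unnamed clusters kept as fibroblasts (median -0.41, 4 genes lower) were also chosen after seeing the data. No paired analysis was possible because each group is 1 library, and no replicate could be left out. The largest counting intervals were in the lymphatic endothelial cells, at 3291807 and 3264384 UMIs in all.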

Other observations

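In classes too small for a comparison, Tnfaip2 in neutrophils was at 3947 CPM (3836 to 4059) in conventional and 1911 CPM (1783 to 2045) in No-Touch cells, and Nfkb2 at 216 CPM (191 to 244) and 124 CPM (93.4 to 162). Nfkbiz in neutrophils was at 1278 CPM (1216 to 1343) and 1211 CPM (1109 to 1319), with overlapping intervals. Schwann cells, the glia of peripheral nerves, had Nfkbiz at 322 CPM (293 to 352) and 121 CPM (109 to 134), Tnfaip2 at 618 CPM (578 to 660) and 277 CPM (259 to 296), and Bcl3 at 107 CPM (90.9 to 125) and 106 CPM (95.3 to 119). In the neutrophil cluster, with 579 and 133 cells, Tnfaip3 had a log2 ratio of 0.96 and Nfkbia -0.52, and in the mononuclear phagocyte cluster, with 57 and 165 cells, Tnfaip3 had 0.71.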
